A study of Mus musculus with 4 samples.

Results

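Leukemia inhibitory factor (LIF) signalling was described here through 7 genes, Lifr, Il6st, Jak1, Stat3, Socs3, Pim1 and Bcl3, chosen by gene symbol from the 26130 genes listed in both deposited tables; all 7 were found, once in each table. RNA had been sequenced from mouse embryonic stem cells in 4 libraries. They were E14 (strain 129P2/OlaHsd) wild type, E14 Zfp57-/-, JB1 (strain JF1/B6) wild type and JB1 Zfp57-/-, with 1 library each. All 4 cultures grew without feeder cells in serum with LIF, so the pathway's ligand was supplied to both genotypes. ZFP57, a zinc finger protein of the KRAB family, is known for its binding to the methylated copy of imprinting control regions. The comparison made within each line was knockout against wild type, and it asked how mRNA levels differ between the libraries of a line. The labels do not say how each knockout was made, nor whether a knockout line came from 1 clone.

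LIF binds a receptor made of LIFR and gp130, the product of Il6st. The kinase JAK1, bound to the receptor chains, then phosphorylates the transcription factor STAT3, which enters the nucleus and raises the transcription of its targets. SOCS3, itself a target, binds gp130 and the kinase and damps the signal. In mouse embryonic stem cells grown in serum, LIF and STAT3 are known for holding the cells in self-renewal.

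Levels are given in RPM, reads per 1000000 reads of the total that the authors' scaling used. For E14 that total was 50478922 (wild type) and 70691473 (knockout), and for JB1 it was 69204114 and 96996280. The listed genes held between 53.1% and 68.9% of it. Differences are log2((knockout RPM + 1)/(wild-type RPM + 1)), which understates changes of genes near 1 RPM, and folds are ratios of RPM. Counts of genes at least 1.5-fold or 2-fold apart use the difference with its added 1 RPM, so a gene of low level can have a ratio of RPM past 1.5 and not be counted. The 95% intervals of levels (exact Poisson) and of folds (exact conditional binomial) cover counting error only, and no spread between cultures is known. Zfp57 itself was 2.60-fold lower in the E14 knockout library (135 and 51.8 RPM) and 18.5-fold lower in the JB1 knockout library (796 and 42.9 RPM), the direction the labels give. The 10 embryonic stem cell markers examined, among them Pou5f1 and Sox2, were all at 7.75 RPM or more in every library. Of 12 fibroblast or feeder genes, those at 1 RPM or more in wild type and knockout numbered 3 and 4 for E14 and 7 and 6 for JB1. The highest of them stood at 18.0 RPM, in the JB1 knockout, and only Dcn had 0 reads in all 4 libraries. The summed level of these genes in wild type and knockout was 11.2 and 12.7 RPM for E14 and 23.6 and 41.4 RPM for JB1. Histone mRNA set the lines apart and, within E14, the libraries: 67 replication-dependent histone genes together held 935 RPM (wild type) and 2499 RPM (knockout) for E14, against 39.6 and 28.0 RPM for JB1. The part of this in the values of the 7 genes was not tested.

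Socs3 and Bcl3 were the members at least 1.5-fold higher in a knockout library, and both were higher in both lines. The stretches before their start sites are shown because no other member differed as much in either line. They are the 250 bases upstream of the annotated start (RefSeq, GRCm38.p6), read 5′ to 3′ on the gene's strand, Socs3 at chr11:117969367-117969616 and Bcl3 at chr7:19822756-19823005, both on the minus strand. Capitals mark every match to TTCNNNGAA, the core that STAT factors are known to bind, and to GGGCGG or its reverse complement CCGCCC, the GC box.
Socs3: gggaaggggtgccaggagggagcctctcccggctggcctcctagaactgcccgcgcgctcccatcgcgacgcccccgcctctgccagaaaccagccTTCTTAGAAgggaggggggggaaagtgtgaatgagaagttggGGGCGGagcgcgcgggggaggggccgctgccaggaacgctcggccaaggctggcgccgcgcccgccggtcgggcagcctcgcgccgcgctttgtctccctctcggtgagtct
Bcl3: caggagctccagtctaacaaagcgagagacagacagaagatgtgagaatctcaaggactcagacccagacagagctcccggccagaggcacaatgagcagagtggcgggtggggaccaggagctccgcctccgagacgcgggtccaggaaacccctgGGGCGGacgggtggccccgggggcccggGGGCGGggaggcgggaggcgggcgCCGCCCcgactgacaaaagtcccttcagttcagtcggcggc

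The Socs3 window held 1 match to TTCNNNGAA, TTCTTAGAA, which begins 154 bases before the start site. The Bcl3 window held none, and neither window held the stricter form TTCCNGGAA. All 7 members matched a RefSeq promoter, with 9 windows in all, and of the 7 only Socs3 had a match to TTCNNNGAA within 250 bases upstream. Over all 32851 such windows, 7.02% held TTCNNNGAA, 0.913% held TTCCNGGAA and 32.7% held a GC box. Each of the 7 members had a GC box in at least 1 window, with 1 in the Socs3 window and 3 in the Bcl3 window. The share of 32.7% counts windows rather than genes, and 1 window of Lifr and 1 of Pim1 had no GC box. Of the 53 genes of the wider pathway (described below) with a window, members among them, 41 had a GC box in at least 1. A match to TTCNNNGAA was found in 4 of these 53 genes, Socs3 and Bcl6 among them. One window of Bcl6 held 3 such matches, 2 of them of the stricter form. TTCNNNGAA reads the same on both strands, and a match describes letters, not binding.

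Socs3, which encodes the feedback inhibitor of the receptor, lies on chromosome 11 (117827393 to 117831361, minus strand, mm9, the build of all gene positions below). Wild-type E14 held 10.2 RPM of it and the matching knockout 14.05 RPM, whereas JB1 held 53.3 RPM (wild type) and 92.0 RPM (knockout). The order of the 4 libraries was the same for Bcl3, with both JB1 libraries above both E14 libraries and each knockout above its own wild type. The difference was 1.73-fold in JB1 (95% interval 1.66 to 1.79) and 1.38-fold in E14 (1.24 to 1.54). On the log2 scale these were 0.78 and 0.43. In JB1, 95.1% of the 13132 genes that reached 1 RPM had a lower log2 difference than Socs3, and in E14 92.3% of 12276 did.

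Bcl3 encodes a nuclear IκB family protein that works with NF-κB subunits, and it is a known STAT3 target (chromosome 7, 20393811 to 20408119, minus strand). Wild-type E14 held 2.42 RPM of it and the matching knockout 4.14 RPM, whereas JB1 held 15.0 RPM (wild type) and 24.8 RPM (knockout). The knockout library was 1.71-fold higher in E14 (95% interval 1.38 to 2.14, on 122 and 293 reads) and 1.65-fold higher in JB1 (1.53 to 1.78). It had the fewest reads of the 7 genes in every library, and so the widest counting error. Its log2 difference in E14, 0.59, lay just past 1.5-fold and fell short of it once the median difference of all genes was set to 0. The antisense gene Gm16174 lies within Bcl3 and had, in wild type and knockout, 0.0594 and 0.481 RPM (E14) and 0.217 and 0.247 RPM (JB1). Whether the authors' counting used strand is not given in the sources used here.

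Pim1, which encodes a serine/threonine kinase and is another STAT3 target, did not follow them (chromosome 17, 29627757 to 29632390, plus strand). E14 held 59.5 RPM (wild type) and 53.2 RPM (knockout) of it, and JB1 held 91.3 and 94.95 RPM. The knockout library was 1.12-fold lower in E14 (95% interval 1.06 to 1.17) and 1.04-fold higher in JB1 (1.01 to 1.07). In both lines it lay in the middle of the genes: 51.7% of the genes in E14 and 88.7% in JB1 differed at least as much in either direction. Gm16912, on the other strand, overlaps the start of Pim1 and held at most 0.526 RPM.

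**Figure D1:**
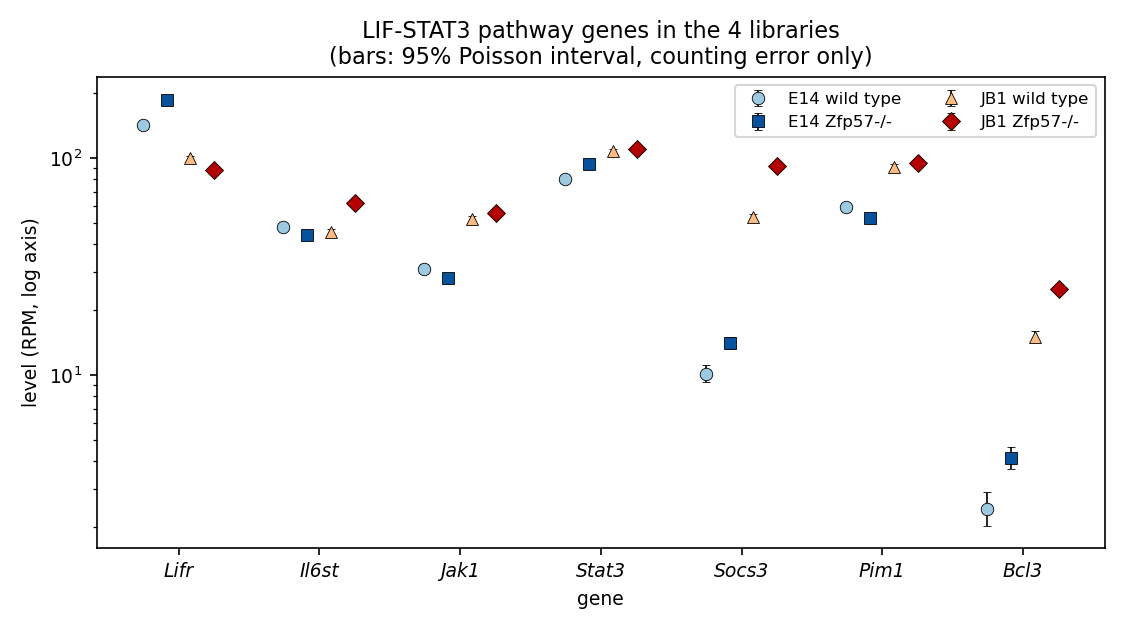
Level of each of the 7 genes (horizontal axis) in RPM on a log axis, with 1 point per library (E14 wild type, E14 Zfp57-/-, JB1 wild type, JB1 Zfp57-/-) and bars for the 95% Poisson interval of the reads. Socs3 and Bcl3 spread over the widest range, from 10.2 to 92.0 RPM and from 2.42 to 24.8 RPM, while Stat3 stays between 80.5 and 110.0 RPM.

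The receptor chains went opposite ways in the lines. Lifr, the ligand-binding chain (chromosome 15, 7079559 to 7147489, plus strand), stood at 142 RPM (wild type) and 185 RPM (knockout) for E14, and at 99.6 and 88.6 RPM for JB1. The E14 knockout was the highest library for Lifr and the JB1 knockout the lowest. The knockout library was 1.31-fold higher in E14 (95% interval 1.27 to 1.35) and 1.12-fold lower in JB1 (1.09 to 1.16).

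Il6st, the shared signalling chain (chromosome 13, 113265216 to 113297068, plus strand), stood at 47.9 RPM (wild type) and 44.0 RPM (knockout) for E14, and at 45.5 and 61.8 RPM for JB1. The Poisson interval of JB1 wild type, 43.9 to 47.1 RPM, overlapped those of both E14 libraries, and the JB1 knockout stood above all of them. This likeness of the wild types depends on the total, because the tables were scaled separately. JB1 wild type was 0.948 times as high as E14 wild type, but 0.734 times with the reads in the listed genes as the total. The knockout library was 1.36-fold higher in JB1 (95% interval 1.301 to 1.42) and 1.09-fold lower in E14 (1.03 to 1.15). Divided by exon length, Lifr exceeded Il6st in every library, by 3.05 times (wild type) and 4.34 times (knockout) for E14 and by 2.26 and 1.48 times for JB1. The ratio of the receptor chains was therefore larger in the knockout than in the wild type of E14 and smaller in that of JB1.

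Jak1 and Stat3, the kinase and the transcription factor of the pathway, differed little. Jak1 (chromosome 4, 100824972 to 100937887, minus strand) stood at 31.0 RPM (wild type) and 28.0 RPM (knockout) for E14, and at 52.4 and 56.1 RPM for JB1. The knockout library was 1.11-fold lower in E14 (95% interval 1.03 to 1.18) and 1.07-fold higher in JB1 (1.03 to 1.12). Stat3 (chromosome 11, 100746412 to 100800854, minus strand) stood at 80.5 RPM (wild type) and 94.3 RPM (knockout) for E14, and at 107 and 110.0 RPM for JB1. It was 1.17-fold higher in the E14 knockout (95% interval 1.13 to 1.22). In JB1 its ratio of 1.02 had an interval, 0.993 to 1.05, that includes no difference. The 3′ end of Stat3 in the tables overlaps that of Stat5a on the other strand, and Stat5a was between 2.42 and 6.57 RPM. The end of Jak1 likewise overlaps that of Raver2 by a few bases, and Raver2 was between 9.14 and 12.6 RPM.

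Counted together, 4 of the 7 members were higher in the E14 knockout library and 6 of 7 in the JB1 knockout library, against 53.5% and 51.5% of all genes at 1 RPM or more. At least 1.5-fold higher were 1 of 7 in E14 (Bcl3), where 3.81% of all genes were, and 2 of 7 in JB1 (Socs3 and Bcl3), where 9.91% were. No member was at least 1.5-fold lower in either line, against 2.27% and 6.52% of all genes. The median difference of the members was 0.23 in E14 and 0.10 in JB1 on the log2 scale, and that of all genes 0.02 and 0.01. In both lines together, 3 of 7 (Stat3, Socs3 and Bcl3) were higher in each knockout library, against 30.6% of the 11890 genes measured in both, and 1 of 7 (Bcl3) was at least 1.5-fold higher in each, against 0.74%. Lifr, Il6st, Jak1 and Pim1 went opposite ways in the lines, as did 42% of those genes.

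**Figure D2:**
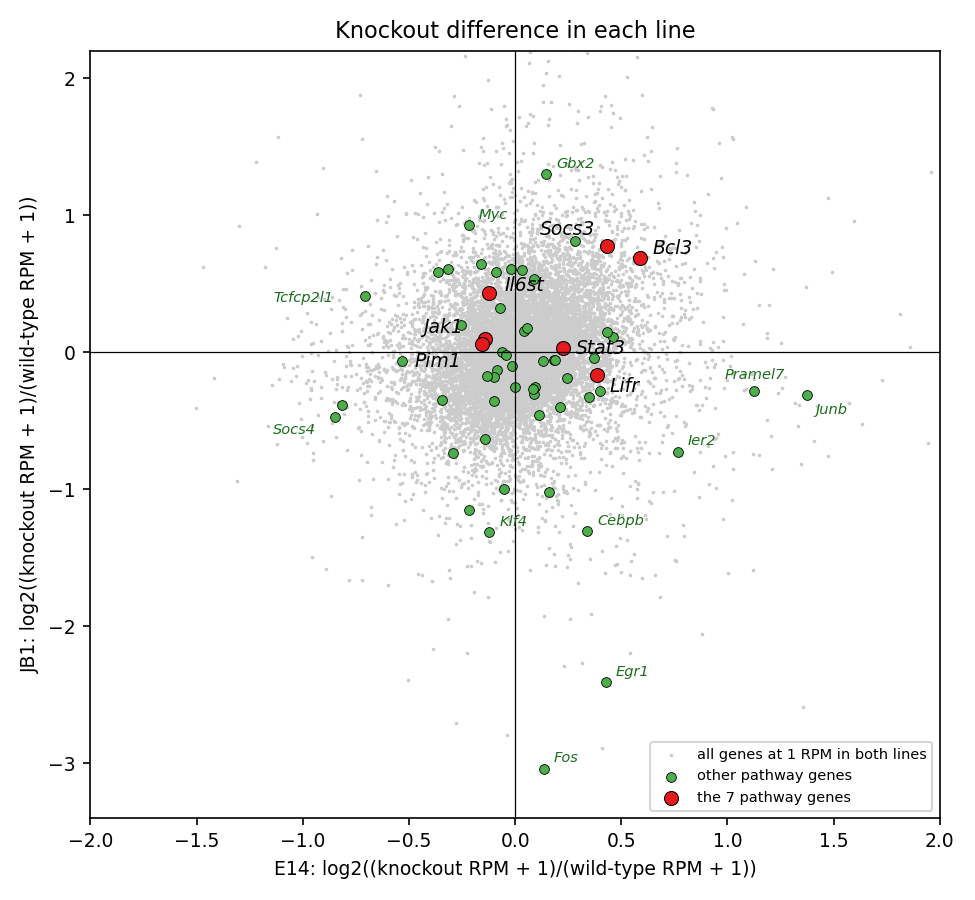
Knockout difference in E14 (horizontal axis) and in JB1 (vertical axis), both log2((knockout RPM + 1)/(wild-type RPM + 1)), for the 7 genes (red), the other pathway genes (green) and all 11890 genes at 1 RPM or more in both lines (grey), of which 12 lie outside the plotted range. Socs3 and Bcl3 lie at the upper right (0.43 and 0.78 for Socs3, 0.59 and 0.69 for Bcl3), Lifr at the lower right, and Fos and Egr1 far below 0 in JB1 and above 0 in E14.

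Whether the lines shared an effect of the knockout was tested in limma on log2(RPM + 1), with terms for line and genotype, over the 12644 genes whose mean reached 1 RPM. The 2 lines are the only replication, so 1 residual degree of freedom per gene was left. The error of a gene joins how far its lines disagreed with a value pooled over all genes tested. The pooled part weighs more (5.28 prior degrees of freedom), so an SE does not measure the spread of that gene alone. No gene passed a Benjamini-Hochberg adjusted p of 0.05 (0%), and 1005 genes (7.95%) had an unadjusted p under 0.05. Socs3 had a shared log2 difference of 0.60 (SE 0.17, limma adjusted p = 0.623, higher in both knockout libraries) and Bcl3 of 0.64 (SE 0.19, limma adjusted p = 0.623, higher in both). Both were among the genes with an unadjusted p under 0.05 (0.0109 for Socs3 and 0.0128 for Bcl3, limma), and neither passed the correction. For Stat3 the shared difference was 0.13 (SE 0.15), for Il6st 0.16 (SE 0.19), for Lifr 0.11 (SE 0.19), for Jak1 −0.02 (SE 0.16) and for Pim1 −0.05 (SE 0.15), with limma adjusted p between 0.817 and 0.978. Zfp57, the gene disrupted in the knockouts, had 0.623 as well, so the test could not call even that gene.

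Levels of different genes were compared only per length, as RPM per kb of exon (lengths from GENCODE M21, matched by symbol). In E14 wild type, Pim1 was the highest member (17.7 RPM per kb) and Bcl3 the lowest (0.977), an 18.1-fold span. In the E14 knockout Lifr (17.2) and Pim1 (15.8) led and Bcl3 (1.67) was lowest, a span of 10.3-fold. In JB1 the span was narrower. Pim1 (27.2) led and Il6st (4.096) was lowest in the wild type, and Socs3 (31.8) led and Il6st (5.57) was lowest in the knockout.

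Socs3 stood in the sixth place among the members in E14 wild type and in the first in the JB1 knockout. Stat3 mRNA exceeded Socs3 mRNA per length in E14, by 2.40 times in the wild type and 2.04 times in the knockout. In JB1 the order was the other way, with ratios of Stat3 to Socs3 of 0.612 and 0.363. Jak1 exceeded its relative Jak2 by between 1.79 and 5.99 times per length. The exon set the authors counted is not given in the sources used here, so these ratios depend on the reference lengths.

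**Figure D3:**
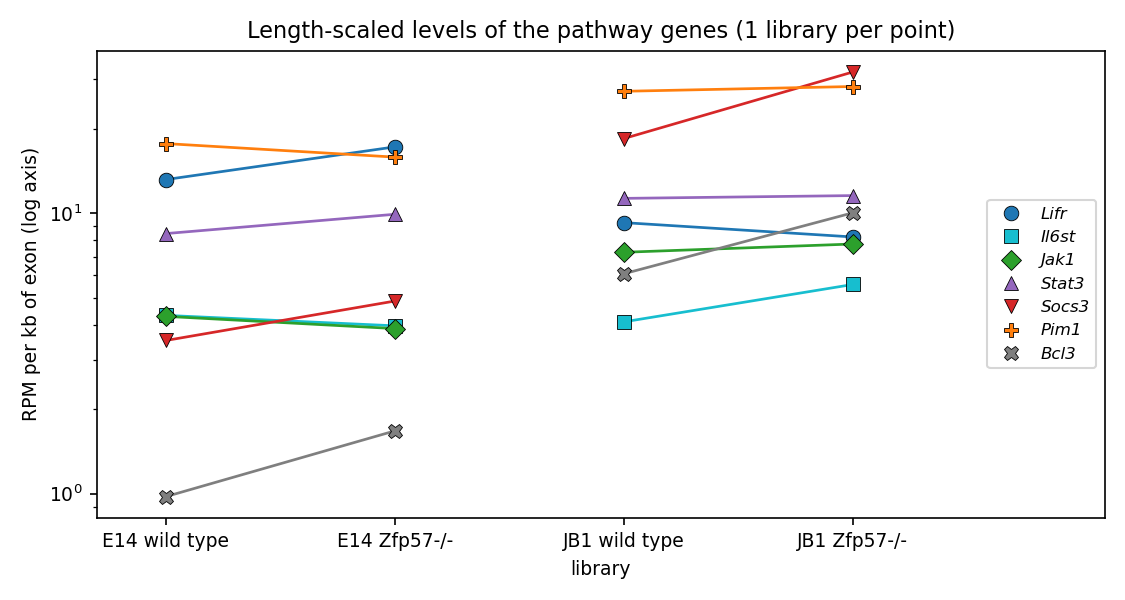
RPM per kb of exon (log axis) of the 7 genes in each library, 1 library per point, with lines joining wild type and knockout of the same line. Socs3 and Bcl3 slope upward in both lines, Lifr slopes upward in E14 and downward in JB1, and Stat3 and Pim1 are nearly level in JB1.

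The lines differed more than the genotypes for Socs3 and Bcl3. Between the wild types, Socs3 was 5.24 times and Bcl3 6.22 times higher in JB1 than in E14, and Lifr was 0.702 times as high. The tables were scaled separately, and with the reads in the listed genes as the total these ratios were 4.06, 4.82 and 0.544. Between the knockouts, the total decided the direction of Stat3, which was 1.17 or 0.908 times as high in JB1 as in E14, and moved Il6st from 1.40 to 1.09 times. No test was made between lines.

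The wider pathway was read through 75 genes sorted by role, of which 74 were in the tables (Tfcp2l1 under its older symbol Tcfcp2l1). At 1 RPM or more were 60 genes in E14 and 64 in JB1. In E14, 4 reached 1.5-fold above the wild type (6.67%) and 3 reached it below (5%), against 3.81% and 2.27% of all genes, and the median was 0.04. In JB1, 9 reached 1.5-fold above (14.1%) and 10 below (15.6%), against 9.91% and 6.52%, and the median was −0.08. With 0.1 RPM added in place of 1 RPM, the JB1 counts were 11 above and 12 below. The counts at 2-fold were 2 higher and none lower in E14 and 1 higher and 7 lower in JB1, where 0.953%, 0.269%, 2.5% and 1.58% of all genes passed.

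Of 9 ligands, 2 in E14 and 3 in JB1 reached 1 RPM. None of these was 1.5-fold apart, where few of all genes were. The shares of all genes above and below were 3.81% and 2.27% in E14 and 9.91% and 6.52% in JB1. Lif was low in all libraries, with wild-type and knockout levels of 3.70 and 4.02 RPM (E14) and of 6.17 and 5.00 RPM (JB1). Il6 had 1 read in E14 wild type and 0 reads in the other 3. Taking 3 reads as the limit that a count of 0 allows, its level in JB1 wild type was at most 0.0434 RPM. Among the 8 receptor genes, Cntfr, the ciliary neurotrophic factor receptor that joins LIFR and gp130, was 1.96-fold higher in the JB1 knockout library (3.61 and 7.07 RPM, 95% interval 1.69 to 2.27). The E14 levels were 0.872 and 1.27 RPM. Osmr, the oncostatin M receptor, stayed below 1 RPM everywhere.

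Of the 7 kinases, 4 were at least 1.5-fold apart in JB1, with 2 higher and 2 lower, against 9.91% and 6.52% of all genes. None was in E14, where fewer of all genes were as well (3.81% and 2.27%). Jak2 was 1.42-fold higher without ZFP57 in E14 (7.67 and 10.9 RPM) and 1.09-fold higher in JB1 (6.08 and 6.65 RPM). Jak3 was 1.56-fold higher in the JB1 knockout (11.6 and 18.2 RPM) and alike in E14 (6.60 and 6.49 RPM). Src was 1.54-fold higher in the JB1 knockout (19.4 and 29.8 RPM), while its relative Yes1 was 2.03-fold lower (363 and 179 RPM).

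The 7 STAT genes, all measured, had medians of −0.05 in each line. Stat5b was 2.15-fold lower in the JB1 knockout library (15.0 and 7.0003 RPM, 95% interval 1.95 to 2.37), against 6.38 and 6.13 RPM in E14. Stat5a had a ratio of RPM of 1.62 in JB1 (4.05 and 6.57 RPM, 95% interval 1.41 to 1.87). The log2 difference of Stat5a, 0.58, fell just short of 1.5-fold. In E14 Stat5a stood at 2.63 and 2.42 RPM. Stat3 lay between 80.5 and 110.0 RPM throughout, as given above.

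Of the 15 inhibitors and phosphatases measured in JB1, 11 were lower and 4 higher in the knockout library, against 48.5% and 51.5% of all genes. Socs3 and Socs2 were counted as at least 1.5-fold higher (13.3% of those measured, against 9.91% of all genes). Ptpn6, which encodes the phosphatase SHP-1, had a ratio of RPM of 1.55 (9.33 and 14.5 RPM), and its log2 difference of 0.58 fell just short of the count. Socs2, which damps growth hormone receptor signalling, was 1.57-fold higher in JB1 (54.6 and 85.7 RPM) and 1.12-fold lower in E14 (53.4 and 47.7 RPM). Socs4 was 1.85-fold lower in the E14 knockout library (31.2 and 16.9 RPM, 95% interval 1.71 to 1.99). In the JB1 knockout library it was 1.40-fold lower (45.7 and 32.6 RPM). Its neighbours within 2 Mb on chromosome 14 were low in E14 too, with a median of −0.64 over 27 genes, and their part in the Socs4 difference was not tested. Around the 7 members the medians of the neighbours lay between −0.07 and 0.19 in E14 and between −0.30 and 0.14 in JB1.

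Pias2, which attaches the modifier SUMO to proteins, was 1.67-fold lower in the JB1 knockout (285 and 170 RPM) and 1.23-fold lower in E14 (186 and 151 RPM). Socs1 stayed below 1 RPM in all libraries. Ptpn11, the phosphatase that links gp130 to ERK signalling, stood at 52.0 and 57.1 RPM (E14) and at 89.8 and 85.7 RPM (JB1). Of the 7 adaptors, Shc1 was 1.53-fold higher in the JB1 knockout (90.6 and 139 RPM) and 1.25-fold lower in E14 (62.0 and 49.6 RPM).

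The STAT3 targets held most of the larger differences of the pathway. All 20 in the tables were measured. By at least 1.5-fold, 4 lay above (20%) and 6 below (30%) the wild type in JB1, against 9.91% and 6.52% of all genes, and the list median was −0.28. In E14 4 lay above (20%) and 2 below (10%), against 3.81% and 2.27%, and the list median was 0.14. Counting differences of any size, 7 of the 20 were lower in the E14 knockout library and 12 of the 20 in the JB1 knockout library, where 46.5% and 48.5% of all genes were. In JB1, Socs3 and Bcl3 were among the 8 targets that were higher.

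With them on the higher side of JB1 were Gbx2, a homeobox gene that sustains self-renewal (7.24 and 19.3 RPM, 2.67-fold, 95% interval 2.42 to 2.95), and Myc (12.0 and 23.7 RPM, 1.98-fold). On the lower side, Klf4, a naive pluripotency factor, was 2.50-fold lower (410 and 164 RPM), and the immediate early genes Fos and Egr1 were 9.77-fold and 5.45-fold lower. Cebpb was 2.77-fold lower (13.6 and 4.89 RPM), Ier2 1.67-fold (95.2 and 57.2 RPM) and Bcl6 1.69-fold (6.94 and 4.11 RPM). Tmem189, on the other strand, covers most of Cebpb and held far more reads, 87.0 and 113 RPM in JB1, so the Cebpb value is uncertain while the strand setting is unknown. Genes of this list, which comes from general knowledge and not from binding data, thus lay on both sides in JB1. Whether they respond to STAT3 in these cells was not tested.

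In E14 other targets stood out. Junb, an AP-1 subunit and early response gene, was 3.10-fold higher in the knockout library (3.15 and 9.76 RPM, 95% interval 2.60 to 3.71), Pramel7 2.95-fold higher (1.55 and 4.55 RPM) and Ier2 1.74-fold higher (15.7 and 27.5 RPM). Tcfcp2l1, a transcription factor through which LIF sustains self-renewal, was 1.64-fold lower (504 and 308 RPM), against 1.33-fold higher in JB1 (727 and 969 RPM). Ccnd2, a D-type cyclin, was 2.59-fold lower (2.38 and 0.919 RPM), and its neighbours within 2 Mb on chromosome 6 had a median of −0.24. Pramel7 had 1 measured neighbour within 2 Mb in E14, with a log2 difference of 1.21, against 1.13 for Pramel7. The part of the neighbours in the differences of Ccnd2 and Pramel7 was not tested. Klf4 was 156 and 143 RPM in E14.

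**Figure D4:**
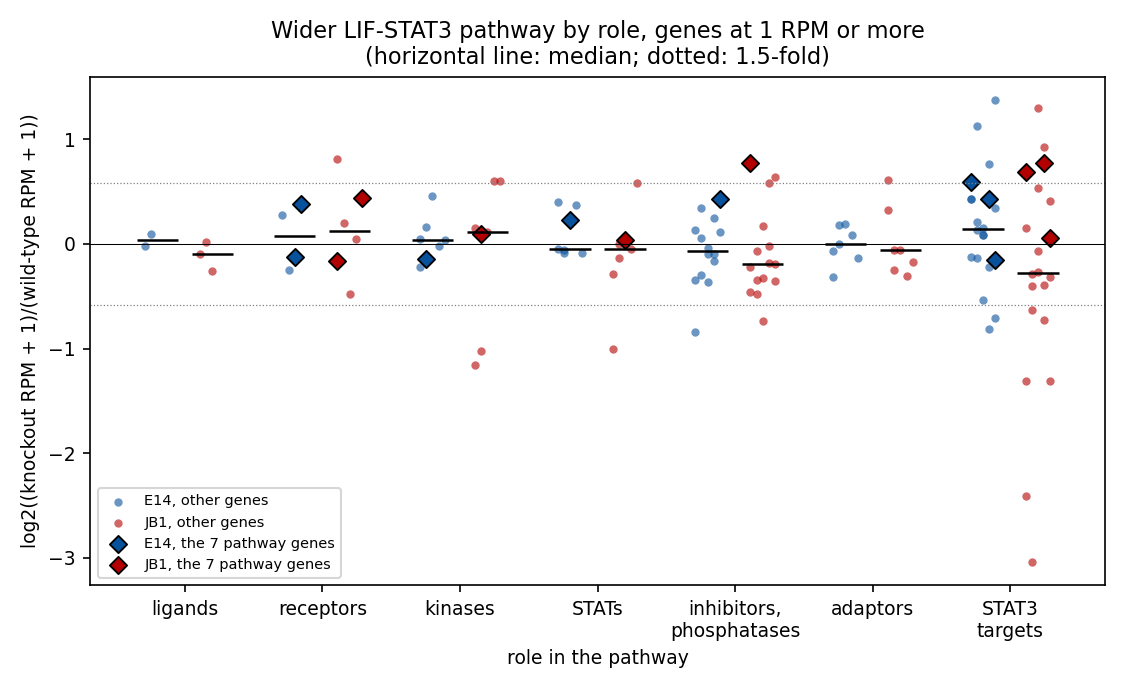
Knockout difference, log2((knockout RPM + 1)/(wild-type RPM + 1)), of the wider pathway by role, for genes at 1 RPM or more in either library of E14 (blue) or JB1 (red); diamonds are the 7 genes, horizontal lines the medians and dotted lines 1.5-fold. The STAT3 targets of JB1 spread from −3.04 (Fos) to 1.302 (Gbx2). No ligand, receptor, kinase, STAT or adaptor gene of E14 reaches 1.5-fold, where 3.81% of all genes lie above it and 2.27% below.

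Markers of the cells' state were read beside these genes. The 16 naive pluripotency genes summed, in wild type and knockout, to 2897 and 2290 RPM (E14) and to 4572 and 3364 RPM (JB1). The 11 primed pluripotency genes summed to 178 and 210 RPM (E14) and to 310.2 and 451 RPM (JB1), and 12 primitive endoderm genes to 135 and 142 RPM and 123 and 157 RPM. Of the naive genes, 10 of 16 were lower in the E14 knockout and 13 of 16 in the JB1 knockout, against 46.5% and 48.5% of all genes. Of the primed genes measured, 7 of 9 and 7 of 10 were higher, against 53.5% and 51.5%. The naive list shares genes with the list of STAT3 targets, among them Klf4, Tcfcp2l1 and Gbx2. Lama1 alone made up most of the primitive endoderm sum (117 and 126 RPM in E14). Of the primitive endoderm genes measured, 5 of 7 were lower in the E14 knockout (median −0.20), against 46.5% of all genes. In the JB1 knockout 8 of 9 were higher (median 0.53), against 51.5%. Afp, of the same list, was below 1 RPM in every library and so not among those measured, with at most 5 reads in any. In bulk RNA a smaller share of cells of a type and less RNA per cell cannot be told apart, and the part of these shifts in the values of the 7 genes was not tested.

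The genes whose pair of differences lay nearest to those of Socs3, among 8658 others at a mean of at least 5 RPM in each line, were Snrpa, Lyar and Akr1b3, at distances of 0.01, 0.01 and 0.02 on the log2 scale. For Bcl3 they were Nans, Chpt1 and Etv1, at 0.02, 0.02 and 0.04. Lyar, for example, stood at 40.1 and 54.8 RPM (E14) and at 65.5 and 114 RPM (JB1). The likeness rests on 2 differences per gene, from 4 libraries, and is a description only.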

How the data were processed

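Per the labels' protocols, TRI reagent served for RNA extraction, followed by the Illumina TruSeq Stranded mRNA kit. The build was mm9 and the tools named were TopHat2 2.0.8b, cutadapt and CASAVA 1.8.2, per the submitters' processing notes. The sources used here do not give the counting tool, annotation or strand setting. The deposited values are log2 RPM, 1 table per line. Their scale was read from the values: 0.9 × 2^(value − lowest value) was whole (relative tolerance 0.0001) for 100% of the other genes in each library, so reads were recovered and genes at the lowest value were set to 0. Only reads in listed genes were analysed.

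Groups came from the sample titles. With 1 library per group, no test was made within a line. Python 3.11.15, SciPy 1.17.1, R 4.3.3 and limma 3.58.1 were used (eBayes with trend, 5.28 prior degrees of freedom); limma was checked on simulated data. Because the deposited values are log2 values, no count model was run. Symbols missing from the tables were matched by RefSeq synonyms. The members, gene lists and tests were chosen with earlier results of these data known. Pathway genes named were 6 fixed ones (Lif, Jak2, Socs1, Ptpn11, Klf4 and Tfcp2l1) and 19 others that differed at least 1.5-fold (log2 difference with 1 RPM added) at 1 RPM or more in a line; 2 further genes that this rule takes are in the counts but are not reported here. For members that differed as much, the 3 nearest genes in pattern were named. Junb, Gbx2 and the other targets form a list from general knowledge, not from binding data.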

Additional observations from a re-analysis of the deposited data

Results flagged for a closer look

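With 1 library per group, a difference between the lines was singled out where the knockout library was higher in one line and lower in the other, each beyond counting error. None of these differences between the lines was tested. Of the 7 members 4 met this, and of the 25 other named genes 10 did, against 18.1% of the 11890 genes measured in both lines. These shares are not alike. Of the 25 genes, 19 were named because they differed at least 1.5-fold in a line, which favours passing the rule. Counting error also shrinks with reads, so a gene with many reads passes at a small difference, as Jak1 did at 1.07-fold in JB1. No excess over all genes is read from these counts.

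Among the members, the JB1 difference minus the E14 difference, on the log2 scale, was −0.55 for Lifr (0.38 in E14 and −0.17 in JB1), 0.56 for Il6st (−0.12 and 0.43), 0.24 for Jak1 (−0.14 and 0.10) and 0.21 for Pim1 (−0.16 and 0.06). The receptor chains thus diverged by similar amounts in opposite directions.

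Among the targets, the same quantity was −2.83 for Egr1, −1.69 for Junb, −1.65 for Cebpb, −1.49 for Ier2 and −1.41 for Pramel7, all higher in the E14 knockout library and lower in the JB1 knockout library. Tcfcp2l1 went the other way, at 1.12. Among signalling genes it was −1.18 for Yes1, −0.20 for Ptpn11, 0.80 for Socs2 and 0.92 for Shc1.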

How the results depend on the processing

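The direction of each member in each line was the same under pseudocounts of 0.1 and 5 RPM, scaling by the reads in the listed genes and a median difference of 0. Of these 56 values, 55 moved by less than their counting error, and Bcl3 in JB1 moved to 0.57 with a pseudocount of 5. Members at least 1.5-fold apart numbered 0 in E14 with a pseudocount of 5 or a median of 0, and 1 in JB1 with a pseudocount of 5. Of the wider pathway, those at least 1.5-fold higher numbered 2 in E14 with a pseudocount of 5 or a filter of 5 RPM, and 5 in JB1 with a pseudocount of 5. A pseudocount of 5 compresses low genes by construction. With the longest transcript as length, the span of the members was 8.80 in the E14 knockout and 5.06 in the JB1 knockout. The limma count stayed at 0 under all 6 alternatives, with adjusted p of Socs3 and Bcl3 between 0.563 and 0.815. The limma model paired wild type and knockout by cell line, through its term for line. Beyond this, no paired analysis was possible because each group held 1 library. Leaving out a library could not be done for the same reason. At 1 RPM a gene had between 50.5 and 96.996 reads.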
